A study of Mus musculus with 6 samples.

Results

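Axon guidance ligands and receptors are the signals by which growing axons, migrating cells and sprouting vessels steer. The group described here holds every gene of the count table whose symbol is an Eph receptor, an ephrin, a semaphorin or a plexin, together with the neuropilins Nrp1 and Nrp2, Slit1 to Slit3, Robo1, Robo2, Ntn1, Ntn4 and the netrin receptors Dcc, Neo1, Unc5a, Unc5b and Unc5c. It has 65 members of 21671 named genes, chosen by symbol alone. Of these, 33 are ligands and 32 receptors.

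As background, Eph receptors are tyrosine kinases that meet membrane-bound ephrins on touching cells, so that signals pass into both cells. Secreted class 3 semaphorins mostly bind neuropilins, which recruit plexins to signal, while the other semaphorins mostly bind plexins directly. Slits are secreted repellents that bind Robo receptors, and netrins attract through Dcc and repel through Unc5 receptors. Beyond the nervous system the same families shape vessels, epithelial sheets, fibroblasts and tumours.

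RNA was measured by ribosome-depleted RNA sequencing in subcutaneous tumours of CD1 nude ho mice, which lack a thymus and so most T cells. The tumours grew from injected transformed hepatoblasts carrying TtRMPVIR shST18, a conditional vector whose hairpin RNA against St18 is made when doxycycline is given. The untreated group has 3 libraries (genotype label wild type), and the doxycycline group has 3 libraries (genotype label ST18 knockdown) taken 4 h after oral gavage with 300 µl of doxycycline at 200 mg/ml. The treatment text describes the hairpin-bearing cells without setting any group apart, and no group was gavaged or given the drug with a control hairpin, so the effects of gavage, drug and hairpin cannot be told apart. The labels give no age and no number of tumours or animals per library. Nothing says that each library came from its own animal, so the p-values here cover the spread among these 6 libraries, which may be technical.

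Libraries held 12090309 to 16169043 counts. St18, the hairpin's target, had 12, 23 and 19 counts in the untreated libraries (replicates 1, 2 and 3, the order used throughout) and 34, 12 and 61 counts after doxycycline. Its log2 fold change of 1.03 (SE 0.55, adjusted p = 0.298 in edgeR) showed no fall in the libraries labelled ST18 knockdown. Doxycycline replicate 2 lay apart from the other 5 libraries on the second principal component, which held 27.6% of the variance. Of the hepatoblast markers, the keratin genes Krt8 and Krt18 were at 43.5 ± 24.7 and 67.2 ± 19.0 CPM (counts scaled to a common library size, mean ± SD, n = 3) in untreated tumours, while Afp was at 1.01 ± 0.363 and Alb at 0.115 ± 0.0429 CPM. After doxycycline they were at 61.0 ± 27.7, 60.3 ± 10.9, 0.643 ± 0.204 and 0.0458 ± 0.0793 CPM. Afp and Alb, secreted markers of the lineage, were thus near the floor of detection. Of 16 markers in this list, 10 were tested and 1 was higher, Gpc3, at 0.428 ± 0.0656 and 4.53 ± 2.77 CPM (adjusted p = 0.0261 in edgeR). Gpc3 passed the filter on low counts only through the doxycycline libraries, where it was high. Of all genes that passed in that way 17.6% were called higher, and of all genes tested 2.84%.

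Markers of other cell types moved with treatment in the same libraries. The summed CPM of 15 skeletal muscle markers was 84.0 to 235 in untreated and 448 to 3069 in doxycycline libraries. Of these, 10 were higher at an edgeR adjusted p under 0.05, 14 in DESeq2 and 1 in limma-voom (2.84%, 5.74% and 1.76% of all genes). Among the 10, Myh4, Myl1, Ckm and Pvalb passed the filter on low counts only through the doxycycline libraries. Marker counts below are to be read against the edgeR shares of 2.84% of all genes higher and 2.18% lower. The 13 fibroblast markers summed to 1171 to 1198 and 1645 to 1872 CPM, with 5 higher. In the doxycycline group the muscle sum was highest in replicate 2 (1515, 3069 and 448 CPM in replicates 1, 2 and 3). The fibroblast sum was lowest there (1872, 1645 and 1853 CPM), but single fibroblast markers went both ways. Col1a1 (275, 189 and 289 CPM), Col1a2 (300, 120 and 310 CPM), Dcn, Postn, Thy1, Fbln1 and Pi16 were lowest in replicate 2. Col3a1, Fap and Pdgfra (103, 229 and 127 CPM) were highest there, and Lum, Dpt and Cd34 lay between. Endothelial markers summed to 357 to 396 and 464 to 531 CPM (3 of 12 higher), and macrophage markers to 412 to 506 and 547 to 769 CPM (3 of 11 tested higher). Neutrophil markers summed to 149 to 201 and 83.0 to 125 CPM (1 of 7 tested lower). Schwann cell markers, the glia of peripheral nerve, summed to 198 to 232 and 231 to 246 CPM, and neuron markers to 68.4 to 80.2 and 50.5 to 73.9 CPM. Of 10 Schwann cell and 4 neuron markers tested, 0 passed in edgeR, DESeq2 or limma-voom. In each list 1 had an unadjusted p under 0.05, as did 23.9% of all genes tested. Mural cell markers summed to 487 to 536 and 463 to 565 CPM (0 of 8 called in edgeR), and lymphocyte markers to 4.38 to 4.59 and 2.93 to 6.32 CPM (0 of 2 tested). Keratinocyte and adipocyte markers were uneven within groups, with sums of 45.6, 127 and 42.8 CPM untreated and 156, 51.9 and 45.7 CPM after doxycycline (0 of 4 tested called). No marker in these lists was at 0 in all 6 libraries. The part of these cell types in the results below was not tested. In bulk tissue, fewer cells of a type and less RNA per cell cannot be told apart.

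Of the 65 members, 61 passed the filter on low counts and were tested, and 5 were higher and 1 lower after doxycycline at an adjusted p under 0.05. The higher ones were the receptor gene Epha3, the repellent Slit3, the semaphorins Sema3c and Sema3d, and the netrin receptor Unc5c. The lower one was the receptor Ephb2. Among all 14809 genes tested, 2.84% were higher and 2.18% lower by the same rule. Offsets for GC content and gene length turned the split over all genes from 421 higher and 323 lower into 301 higher and 387 lower, with 4 members higher (2.03% of all genes) and 1 lower (2.61%). The lower member was then Plxna3, while Ephb2 and Unc5c lost their calls. DESeq2 called 11 members higher (5.74% of all genes) and 4 lower (5.17%), limma-voom 2 higher (1.76%) and 0 lower (1.94%, unadjusted p under 0.05 in 26 members), and edgeR with no filter on low counts 4 higher (2.15%) and 0 lower (1.86%). Epha3, Sema3c, Sema3d, Unc5c, Plxnb3 and Robo2 passed the filter only through the doxycycline libraries, where they were high. For such a gene every doxycycline library reached the cut of 0.686 CPM and not every untreated library did. This favours higher values without forcing them. Among all genes that passed in that way 17.6% were called higher. Of the other 55 members, 1 was higher and 1 lower, against 2.36% and 2.25% of all genes that did not depend on the doxycycline libraries.

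The median log2 fold change was 0.18 over the 61 members and 0.04 over those 55, and 0.01 over all genes tested. Over the 61 members it was 0.02 without doxycycline replicate 3, 0.04 in limma-voom and 0.10 without untreated replicate 3. Regardless of sign, the median was 0.35 for the members and 0.21 for all genes. The groups did not overlap for 24 members, 12 higher and 12 lower, against 15.1% of all genes higher and 14.5% lower (29.6% in either direction). Among the 55 members that did not depend on the doxycycline libraries for the filter, 6 were higher and 12 lower in this way, against 13.9% and 14.9% of such genes. Of the 61 members, 17 with positive and 11 with negative values had an unadjusted p under 0.05, against 13.1% and 10.8% of all genes. Among those 55 members the numbers were 11 and 11, against 11.9% and 11.1%. Of the 55, Epha8, Sema4f and Dcc passed the filter only through the untreated libraries. Epha8 and Dcc are among the 12 that were lower without overlap, and Epha8 is among the 11 with negative values. Such members and genes were kept in these counts and shares. Without untreated replicate 1, 2 or 3, edgeR called 0 members in either direction, and 0.151%, 0.345% and 0.178% of all genes. In these fits 22, 23 and 16 members had an unadjusted p under 0.05, as did 15.8%, 18.2% and 14.2% of all genes. Without doxycycline replicate 2 it called 14 higher and 4 lower (8.18% and 5.69% of all genes), without doxycycline replicate 1 it called 1 and 1 (1.19% and 1.56%), and without doxycycline replicate 3 it called 2 and 0 (1.06% and 0.867%).

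**Figure D1:**
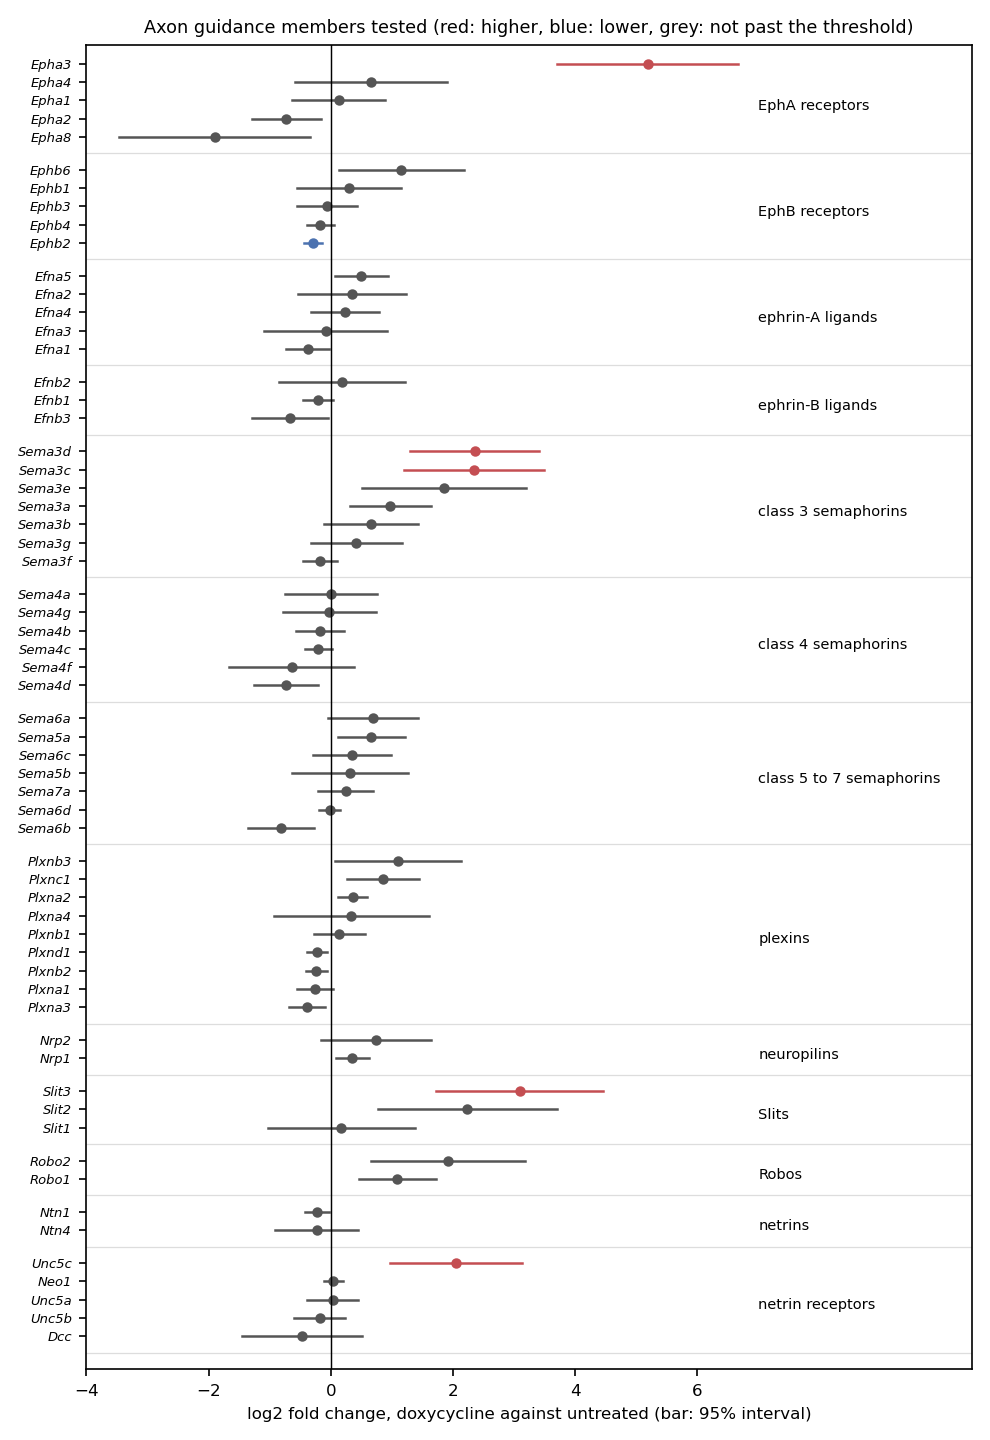
Log2 fold change of each of the 61 members tested, by role, with bars for the 95% interval and red or blue for members past an adjusted p of 0.05. The 5 red members lie from 2.05 (Unc5c) to 5.19 (Epha3), and the blue member, Ephb2, lies at -0.29 with a short interval.

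Of the 5 members that rose, Epha3, Sema3c, Sema3d and Unc5c had a mean under 5 CPM over all libraries. All 4 passed the filter only through the doxycycline libraries, so nothing is read from their share of the scarce members. Of 22 members at 50 CPM or more, 0 were higher and 1 lower, with 14 negative values (median -0.17), against 141 higher and 226 lower of 6619 genes (median -0.03). Slit3 was the 1 called member at 5 to 50 CPM. Median GC content was 46.0% for genes called higher, 54.5% for genes called lower and 56.1% for the members tested. Among abundant members, offsets for GC content and length put Ephb4 at -0.03, Sema3f at -0.04 and Sema4c at -0.09. With the same offsets Epha2 was at -0.66, Sema4d at -0.73 and Ephb2 at -0.34. The part of GC content in these values was not tested.

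To show bases just before the start of called members, the 250 bases before the RefSeq start site are given for 2 members that rose and the 1 that fell, with every CpG in capitals. Build is GRCm38.p6, and the counts were made on mm9, so these positions serve only to place the printed bases. The windows were chosen because they hold no annotated exon.
Epha3, chr16:63864176-63864425, minus strand: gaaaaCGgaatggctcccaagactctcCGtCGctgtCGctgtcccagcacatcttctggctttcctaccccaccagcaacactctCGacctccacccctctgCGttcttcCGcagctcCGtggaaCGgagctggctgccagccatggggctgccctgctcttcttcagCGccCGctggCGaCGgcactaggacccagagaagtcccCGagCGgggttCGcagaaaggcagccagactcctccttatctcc
Sema3d, chr5:12382916-12383165, plus strand: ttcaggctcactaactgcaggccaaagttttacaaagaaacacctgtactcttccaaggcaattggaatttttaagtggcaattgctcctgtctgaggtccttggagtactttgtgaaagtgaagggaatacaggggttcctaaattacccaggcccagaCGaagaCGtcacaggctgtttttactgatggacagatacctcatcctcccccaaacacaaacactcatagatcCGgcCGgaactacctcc
Ephb2, chr4:136836013-136836262, minus strand: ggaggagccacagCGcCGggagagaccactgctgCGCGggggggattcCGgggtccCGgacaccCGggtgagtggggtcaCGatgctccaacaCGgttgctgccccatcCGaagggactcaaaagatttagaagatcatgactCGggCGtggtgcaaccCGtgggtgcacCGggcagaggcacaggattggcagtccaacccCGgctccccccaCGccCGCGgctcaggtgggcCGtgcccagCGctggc
The Epha3 window held 16 CpGs and 62.8% GC, and the Ephb2 window 20 CpGs and 68.4% GC. The Sema3d window held 4 CpGs and 46.8% GC. The median over 32851 RefSeq windows of this length was 6 CpGs and 52.4% GC, and over 72 windows of 56 matched members 16 CpGs and 64.4% GC. AAAGTTT, the core bound by the zinc finger family of St18, was searched on both strands. It occurs in the Sema3d window, starting 227 bases before the start site, and not in the other 2. It was found in 4 of the 72 member windows (5.56%) and in 4.2% of all windows.

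Slits and their Robo receptors had positive values throughout. Of 5 members, Slit3 was called higher, as were 2.84% of all genes tested. The median log2 fold change was 1.92, the value of Robo2, which passed the filter only through the doxycycline libraries. Nothing is read from that median. Slit3, a secreted repellent of axons that mesenchymal cells also release, was at 1.89, 2.70 and 2.16 CPM untreated and 30.9, 4.94 and 22.1 CPM after doxycycline. All 3 treated libraries lay above all untreated ones, with replicate 2 nearest to them. In log2 terms the difference was 3.09 (95% interval 1.72 to 4.46, SE 0.60, adjusted p = 0.030 in edgeR). Slit3 missed the threshold with no filter on low counts (adjusted p = 0.0537), in limma-voom (adjusted p = 0.115), and without each library except doxycycline replicate 2 (adjusted p 0.0729 to 0.201).

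Slit2, the best studied Slit of vessels and tumours, was at 1.74, 1.57 and 1.01 CPM untreated and 12.1, 1.72 and 6.76 CPM after doxycycline. Its groups overlapped, because doxycycline replicate 2 stayed within the untreated range. Its log2 fold change was 2.24 with SE 0.64 (adjusted p = 0.083 in edgeR). Slit1, the most neural of the Slits, was at 2.32 ± 0.199 and 2.64 ± 1.73 CPM (log2 fold change 0.18, edgeR adjusted p = 0.879).

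Robo1, the main Slit receptor outside the nervous system, was at 16.2, 18.3 and 16.5 CPM untreated and 35.6, 50.9 and 22.1 CPM after doxycycline. The groups did not overlap, and here doxycycline replicate 2 was the highest. The log2 fold change of 1.09 (SE 0.28, 95% interval 0.46 to 1.72) just missed the threshold (edgeR adjusted p = 0.0596). It passed without doxycycline replicate 2 (adjusted p = 0.0413), without doxycycline replicate 3 (adjusted p = 0.0298) and in DESeq2 (adjusted p = 0.00246). Robo2 had 2, 7 and 10 counts untreated and 16, 34 and 20 after doxycycline (log2 fold change 1.92 with SE 0.55, adjusted p = 0.0832 in edgeR). Its libraries did not overlap either, over few counts.

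Class 3 semaphorins, the secreted members of their family, mostly had positive values. Of 7 members, 6 had positive values, and the median log2 fold change was 0.97, the value of Sema3a. Sema3c and Sema3d were called higher, as were 2.84% of all genes tested. But both passed the filter only through the doxycycline libraries, and 17.6% of all genes that did so were called higher. The other 5 were not called. Sema3d, known from heart and vein development, was at 0.831, 0.628 and 0.607 CPM untreated and 5.69, 2.40 and 2.63 CPM after doxycycline. Every treated library exceeded every untreated one. A log2 fold change of 2.36 was estimated, with SE 0.46 and a 95% interval of 1.30 to 3.42 (adjusted p = 0.0305 in edgeR), over 30 untreated counts in all.

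Sema3c, which guides neural crest and outflow tract cells, was at 0.680, 1.70 and 1.28 CPM untreated and 10.3, 3.84 and 4.76 CPM after doxycycline. Again the groups did not overlap, and doxycycline replicate 1 was the highest for both genes. In log2 terms the difference was 2.34 (95% interval 1.202 to 3.49, SE 0.50, adjusted p = 0.0386 in edgeR). Sema3c missed the threshold without each library except doxycycline replicate 2 (adjusted p 0.0723 to 0.179) and in limma-voom (adjusted p = 0.0561). Sema3d missed it without the same 5 libraries (adjusted p 0.0566 to 0.162).

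Sema3e, which acts on vessels through plexin D1, was at 19.8, 12.7 and 8.56 CPM untreated and 56.3, 12.4 and 79.5 CPM after doxycycline. Replicates 1 and 3 lay far above the untreated libraries and replicate 2 within them. Its log2 fold change of 1.86 (SE 0.59) did not pass (edgeR adjusted p = 0.106). Sema3a, the classic growth cone repellent, was at 39.5, 43.7 and 31.2 CPM untreated and 54.3, 115 and 54.8 CPM after doxycycline. The groups did not overlap, and doxycycline replicate 2 was the highest library for Sema3a (log2 fold change 0.97 with SE 0.29, adjusted p = 0.0914 in edgeR).

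Sema3b (log2 fold change 0.66), Sema3g (0.42) and Sema3f (-0.17) did not pass, with edgeR adjusted p from 0.284 to 0.484. Sema3f, a ligand of neuropilin 2, had the highest level of the class per length, at 20.4 ± 1.17 CPM per kilobase untreated and 18.1 ± 2.54 after doxycycline.

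The 4 class 3 genes with the largest values lie on chromosome 5 in RefSeq, in the order Sema3d, Sema3a, Sema3e, Sema3c. The other 3 are on chromosomes 9 and 14. Of 18 protein-coding genes between them, 3 were tested. The calcium channel subunit gene Cacna2d1 was higher (log2 fold change 0.80, edgeR adjusted p = 0.0288), while Hgf was at 0.72 (adjusted p = 0.251) and Pclo at 0.29 (adjusted p = 0.621). These 3 genes were named after their values were seen, for their position.

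The neuropilins, co-receptors of class 3 semaphorins and of VEGF, had positive values that did not pass. Nrp1 was at 96.7, 125 and 107 CPM untreated and 129, 158 and 133 CPM after doxycycline. Its groups lay apart by a small margin (log2 fold change 0.35, SE 0.12, 95% interval 0.09 to 0.62, edgeR adjusted p = 0.119). Nrp2 was at 54.8, 45.7 and 42.3 CPM untreated and 98.9, 30.2 and 109 CPM after doxycycline, so that replicate 2 was the lowest of all 6 libraries (log2 fold change 0.74 with SE 0.39, adjusted p = 0.298 in edgeR).

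Among 9 plexins, the receptors through which semaphorins act on the cytoskeleton, 0 passed in edgeR and limma-voom. Of these, 6 had an unadjusted p under 0.05, 3 positive and 3 negative (13.1% and 10.8% of all genes tested). Plxnb3, among the positive ones, passed the filter only through the doxycycline libraries. DESeq2 called 2 plexins higher (5.74% of all genes). The median log2 fold change was 0.14. Plxna2, a partner of the neuropilins, was at 63.6, 76.0 and 68.6 CPM untreated and 89.4, 83.0 and 94.9 CPM after doxycycline (log2 fold change 0.36 with SE 0.10, adjusted p = 0.0818 in edgeR). Plxnc1, the receptor of Sema7a, was at 17.1 ± 2.09 and 31.0 ± 10.2 CPM (0.86, edgeR adjusted p = 0.0931). Both had groups that did not overlap, as had 15.1% of all genes in this direction.

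The abundant plexins lay on the other side of 0. Plxnb2, the plexin with the highest level, was at 404, 407 and 400.5 CPM untreated and 367, 313 and 349 CPM after doxycycline (log2 fold change -0.23 with SE 0.07, adjusted p = 0.104 in edgeR). Plxnd1, the vascular plexin, was at 345 ± 18.5 and 295 ± 14.1 CPM (-0.23, edgeR adjusted p = 0.102), and Plxna3 at 126 ± 17.2 and 96.5 ± 13.2 CPM (-0.39, adjusted p = 0.123). All 3 had lower values in every treated library than in any untreated one, as had 14.5% of all genes tested. Plxna1, more abundant than Plxna3, was at 246 ± 26.4 and 206 ± 34.1 CPM (-0.26, edgeR adjusted p = 0.279), and its groups overlapped. Plxna4 was at 23.6, 25.1 and 18.5 CPM untreated and 32.5, 6.25 and 46.2 CPM after doxycycline, with replicate 2 again the lowest (log2 fold change 0.34 with SE 0.55, adjusted p = 0.761 in edgeR).

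**Figure D2:**
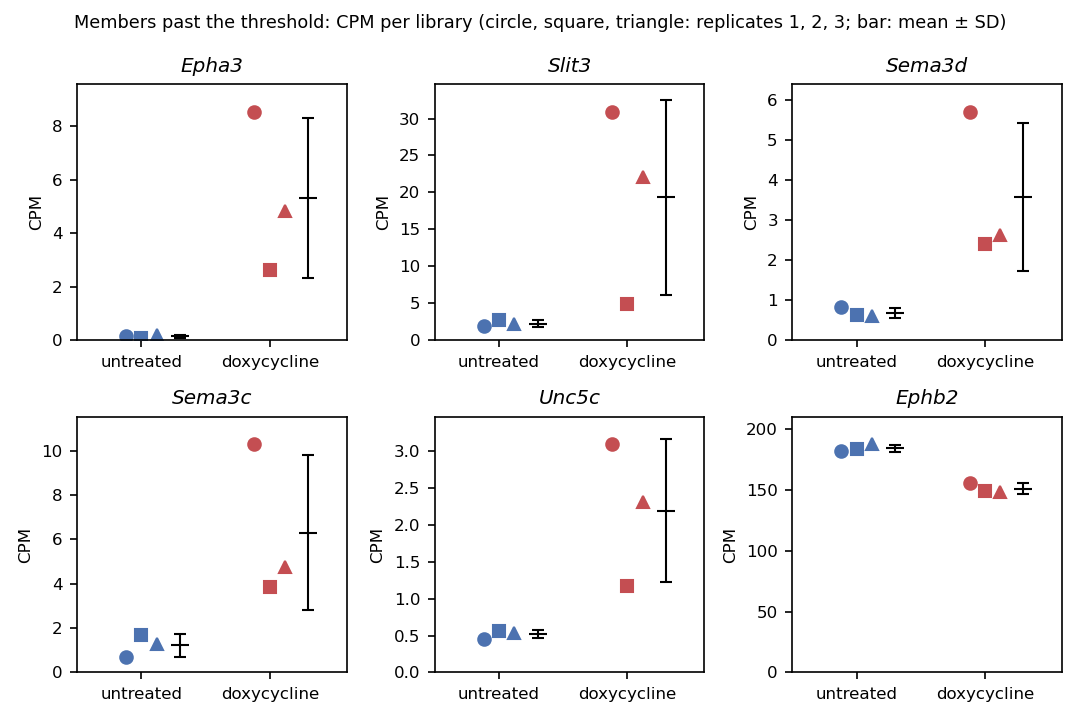
CPM in each library for the 6 members past the threshold, each panel on its own axis from 0, with the mean and SD beside the points. Doxycycline replicate 2 (square) is the lowest treated point in the 5 panels of members that rose, while Ephb2 differs little between treated libraries.

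Of the 6 class 4 semaphorins, which are membrane proteins, 0 passed in edgeR and limma-voom, and 5 had negative values (median -0.19). An unadjusted p under 0.05 was found for 1 of them, and for 23.9% of all genes tested. Sema4d, the ligand of plexin B1 on immune and tumour cells, was at 80.3, 86.7 and 69.0 CPM untreated and 65.6, 32.1 and 45.1 CPM after doxycycline. Its groups did not overlap. A log2 fold change of -0.73 was estimated, with SE 0.23 and a 95% interval of -1.25 to -0.20 (adjusted p = 0.107 in edgeR), and it was called lower without doxycycline replicate 1 and in DESeq2 (adjusted p 0.0351 and 0.0158).

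Sema4c, the most abundant member of the class per length, was at 155 ± 9.09 and 135 ± 14.97 CPM (log2 fold change -0.20, edgeR adjusted p = 0.254). Sema4a, Sema4b, Sema4f and Sema4g had values from -0.64 to 0.01.

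In classes 5 to 7, 0 of 7 passed in edgeR and limma-voom (median 0.32), and 2 had an unadjusted p under 0.05 (23.9% of all genes tested). DESeq2 called Sema5a higher and Sema6b lower (5.74% and 5.17% of all genes). Sema6b, a transmembrane ligand of plexin A receptors, was at 29.1, 29.1 and 27.7 CPM untreated and 16.7, 10.9 and 21.3 CPM after doxycycline. The untreated libraries lay close together and above every treated library. Its log2 fold change was -0.81 with SE 0.24 (adjusted p = 0.0873 in edgeR), and it passed without doxycycline replicate 2 (adjusted p = 0.0395) and in DESeq2 (adjusted p = 0.00972). Sema5a, which carries thrombospondin repeats, was at 72.5 ± 17.5 and 115 ± 33.5 CPM (0.66, edgeR adjusted p = 0.142). Sema6d, the most abundant of these classes per length, was at 117 ± 2.97 and 115 ± 2.68 CPM, with a log2 fold change of -0.02 (95% interval -0.18 to 0.15).

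The Eph receptors had values in both directions. Of 14, 10 were tested, 5 with positive and 5 with negative values (median 0.04). In each direction 1 passed, against 2.84% of all genes higher and 2.18% lower. The higher one, Epha3, passed the filter only through the doxycycline libraries. Epha3, a receptor of mesenchymal and vascular progenitor cells that binds ephrin-A5, had 2, 1 and 3 counts untreated and 102, 38 and 77 counts after doxycycline. This was 0.139 ± 0.0706 and 5.32 ± 2.998 CPM. Even the lowest treated library, replicate 2, held more reads than the untreated libraries together.

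For Epha3 the log2 fold change was 5.19 (95% interval 3.71 to 6.67, SE 0.65, adjusted p = 0.00886 in edgeR). Over pooled reads the ratio was 37.7 (95% counting interval 17.0 to 104, which leaves out the spread between libraries). Epha3 passed under 10 of 13 alternative fits. It missed the threshold without untreated replicates 1, 2 and 3 (adjusted p 0.0742, 0.0555 and 0.0635). Without doxycycline replicates 1, 2 and 3 the adjusted p was 0.0187, 4.75e-04 and 0.0256.

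Epha2, the most abundant EphA receptor here and one of epithelial and tumour cells, was at 130.6, 127 and 132 CPM untreated and 89.1, 44.7 and 102 CPM after doxycycline. Its groups did not overlap, with replicate 2 lowest. A log2 fold change of -0.72 was estimated, with SE 0.25 and a 95% interval of -1.29 to -0.15 (adjusted p = 0.128 in edgeR), and it passed without doxycycline replicate 2 (adjusted p = 0.0104). Epha8, which passed the filter only through the untreated libraries, had 12, 18 and 46 counts untreated and 9, 2 and 8 after doxycycline (log2 fold change -1.90 with SE 0.69, adjusted p = 0.142 in edgeR). Epha1 (0.13) and Epha4 (0.66) did not pass. Epha5, Epha6, Epha7 and Epha10 were not tested, with at most 11 counts in any library.

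Ephb2, a receptor that sorts cells in the gut epithelium and binds ephrin-B ligands, was at 182, 184 and 188 CPM untreated and 156, 149 and 148 CPM after doxycycline. The libraries of each group lay close together and the groups did not overlap. The log2 fold change was small, -0.29 (SE 0.07, 95% interval -0.44 to -0.14, edgeR adjusted p = 0.0457). The call was lost without each library except doxycycline replicate 2 (adjusted p 0.0591 to 0.238), in limma-voom (0.0538), with no filter on low counts (0.0634) and with offsets for GC content and length (0.127).

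Ephb4, the venous Eph receptor, was at 159 ± 7.84 and 141 ± 17.1 CPM (log2 fold change -0.17 with SE 0.10, adjusted p = 0.336 in edgeR). Ephb3 stayed at -0.06 (adjusted p = 0.899). Ephb6, whose kinase domain is inactive, was at 3.33, 5.65 and 2.29 CPM untreated and 6.70, 5.35 and 13.0 CPM after doxycycline (log2 fold change 1.15 with SE 0.45, adjusted p = 0.165 in edgeR). Its groups overlapped at replicate 2.

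None of the 8 ephrins passed in edgeR, DESeq2 or limma-voom, and 3 had an unadjusted p under 0.05 (23.9% of all genes tested). Efna5, a ligand of Epha3, was at 50.3, 54.0 and 39.2 CPM untreated and 80.1, 49.8 and 73.5 CPM after doxycycline (log2 fold change 0.50 with SE 0.19, adjusted p = 0.160 in edgeR). Replicate 2 lay within the untreated range, and without it the gene passed (adjusted p = 0.0122). Efna1, the usual ligand of Epha2, was at 46.9 ± 8.40 and 36.2 ± 3.15 CPM (-0.37, edgeR adjusted p = 0.186).

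Of the ephrin-B ligands, Efnb1 and Efnb3 were lower in all treated libraries than in any untreated one, as were 14.5% of all genes tested. Efnb3 was at 5.37, 5.02 and 5.73 CPM untreated and 3.35, 3.71 and 3.07 CPM after doxycycline (log2 fold change -0.67 with SE 0.27, adjusted p = 0.178 in edgeR). Efnb1, a ligand of EphB receptors, was at 51.1 ± 4.59 and 44.3 ± 1.03 CPM (-0.21, adjusted p = 0.300). Efnb2, the arterial partner of Ephb4, was at 21.5, 26.1 and 12.5 CPM untreated and 28.9, 8.58 and 30.9 CPM after doxycycline (0.19, adjusted p = 0.845).

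In the netrin system 1 of 7 members was called higher, a scarce receptor, as were 2.84% of all genes tested. It passed the filter only through the doxycycline libraries, and 17.6% of all genes that did so were called higher. Unc5c, a netrin receptor for repulsion, had 6, 9 and 8 counts untreated and 37, 17 and 37 after doxycycline, or 0.519 ± 0.0586 and 2.19 ± 0.972 CPM. The groups did not overlap. In log2 terms the difference was 2.05 (95% interval 0.97 to 3.13, SE 0.47, adjusted p = 0.0470 in edgeR). It was lost without each library except doxycycline replicate 2 (adjusted p 0.103 to 0.216), in limma-voom (0.0778) and with offsets for GC content and length (0.0530).

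Unc5b, the vascular member, was at 170, 173 and 168 CPM untreated and 166, 102 and 183 CPM after doxycycline (log2 fold change -0.18, edgeR adjusted p = 0.602). Unc5a was at 0.03 (adjusted p = 0.934). Neo1, a Dcc relative that also binds repulsive guidance molecules, was at 251, 270.5 and 259 CPM untreated and 284, 258 and 261 CPM after doxycycline (0.04, 95% interval -0.11 to 0.20). Its sign turned with offsets for GC content and length and without doxycycline replicate 1. Dcc itself had 7 to 17 counts in every library and passed the filter only through the untreated libraries. The ligand Ntn1 was at 158, 170.5 and 162 CPM untreated and 149, 126 and 145 CPM after doxycycline, lower in all treated libraries (log2 fold change -0.22 with SE 0.09, adjusted p = 0.161 in edgeR).

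Levels can be compared between genes only per length, here as CPM per kilobase of exon in untreated libraries (mean ± SD, n = 3). Plxnb2 was highest at 61.5 ± 0.498, followed by Plxnd1 at 49.95 ± 2.68. Then came Sema4c at 36.4 ± 2.13, Ephb4 at 36.3 ± 1.79, Neo1 at 35.2 ± 1.35, whose neighbours differed by less than their SD. Epha2 followed at 33.1 ± 0.664. Nrp1 (30.5 ± 3.95), Unc5b (29.0 ± 0.485), Plxna1 (27.3 ± 2.92) and Ntn1 (26.8 ± 1.07) came next, each within the larger SD of its neighbour. Plexins, Eph receptors, netrin receptors and neuropilins each had a member among these 10, and the Robo receptors did not.

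The 5 members that rose lay far below, from 0.0220 (Epha3) to 0.430 (Slit3) CPM per kilobase untreated. After doxycycline they lay from 0.226 (Unc5c) to 3.70 (Slit3), still below the abundant receptors. Among Robo receptors, Robo1 was at 2.25 and Robo2 at 0.0473 CPM per kilobase untreated. No member exceeded 0.987 counts per base of exon in any library, a value reached by Plxnb2.

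**Figure D3:**
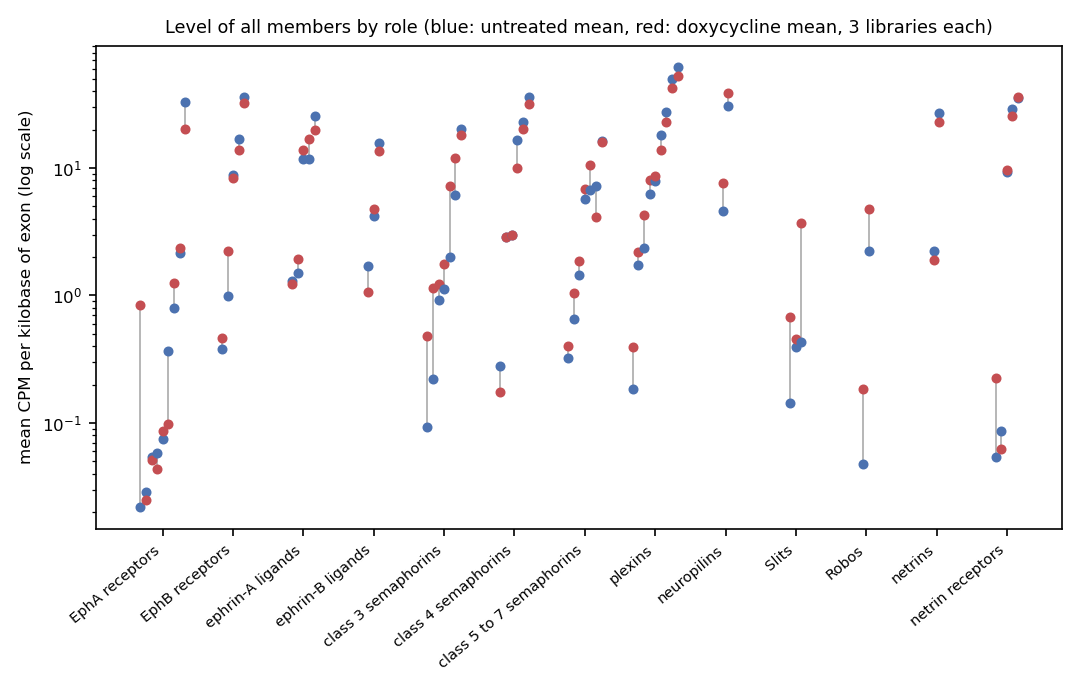
Mean CPM per kilobase of exon on a log axis for all 65 members by role, with the untreated mean in blue and the doxycycline mean in red, joined by a line (3 libraries each). Long upward lines belong to scarce genes such as Epha3, Slit3 and Sema3d, while Plxnb2 and Plxnd1 at the top change little.

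Doxycycline replicate 2 differed from replicates 1 and 3 for many members. It was the lowest of the 3 treated libraries for 42 of 61 members and for 40.4% of all genes tested, while replicate 1 was lowest for 9 (32.9%) and replicate 3 for 10 (26.7%). For 13 members, among them Slit2, Sema3e, Nrp2, Plxna4, Efna5, Efnb2, Epha4 and Ephb6, replicates 1 and 3 exceeded every untreated library and replicate 2 did not (9.65% of all genes). For 8 members, Robo1, Robo2, Sema3a, Nrp1, Plxnb3, Efna2, Efna3 and Efna4, replicate 2 was the highest of all 6 libraries (23.4% of all genes). The muscle marker sum was highest and the fibroblast sum lowest of the treated libraries in replicate 2. Single fibroblast markers went both ways there, as given above.

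**Figure D4:**
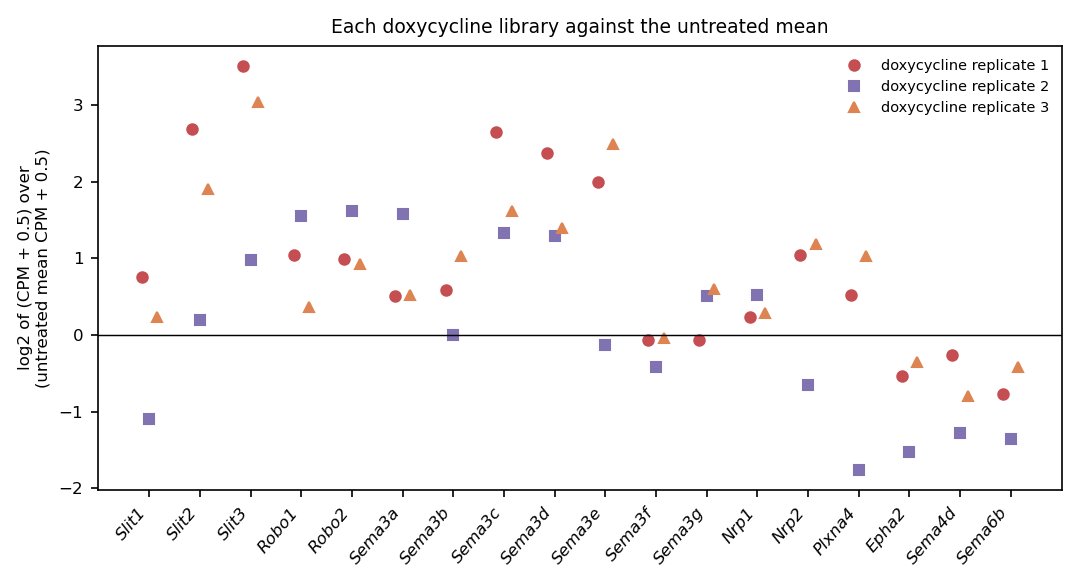
Log2 of each doxycycline library's CPM over the untreated mean, both with 0.5 CPM added, for Slits, Robos, class 3 semaphorins, neuropilins and 4 other members. Replicate 2 (square) lies lowest for Slit2, Slit3, Sema3e, Nrp2 and Plxna4 and highest for Robo1, Robo2 and Sema3a.

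Other genes of the pathway were taken from 3 lists, to be read against the 5.02% of all genes called in either direction. Of 22 further guidance ligands, receptors and adhesion molecules, 15 were tested and 1 was higher (median log2 fold change 0.20). That median was -0.04 without doxycycline replicate 3, 0.08 without doxycycline replicate 1 and 0.01 with offsets for GC content and length. The gene called higher was Chl1, a neural adhesion molecule that serves as a semaphorin co-receptor. It had 7, 25 and 7 counts untreated and 188, 28 and 196 after doxycycline (log2 fold change 3.51 with SE 0.80, adjusted p = 0.0452 in edgeR). Chl1 passed the filter only through the doxycycline libraries, and 17.6% of all genes that passed in that way were called higher. Replicate 2 lay close to the untreated libraries for this gene as well. The call was lost without each library except doxycycline replicate 2 (adjusted p 0.107 to 0.249), in limma-voom (0.128), with no filter (0.0916) and with offsets (0.0530).

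Of 46 intracellular effectors, 43 were tested and 2 were lower (median 0.02). Rnd1, which binds plexins inside the cell, had 348, 401 and 436 counts untreated and 109, 111 and 241 after doxycycline (log2 fold change -1.34 with SE 0.26, adjusted p = 0.0307 in edgeR). The actin regulator Vasp was at 145 ± 9.40 and 114 ± 3.31 CPM (-0.36, adjusted p = 0.0424 in edgeR). Both had groups that did not overlap, as had 14.5% of all genes in this direction. Rnd1 missed the threshold without any 1 untreated library or doxycycline replicate 1 (adjusted p 0.0700 to 0.149). Vasp missed it without each library except doxycycline replicate 2 (adjusted p 0.0754 to 0.228), in limma-voom (0.0542) and with offsets (0.190).

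Of 20 cofactors and sheddases, 19 were tested and 1 was higher (median -0.01). Sdc2, a heparan sulphate proteoglycan that holds guidance ligands, was at 51.8 ± 10.7 and 86.1 ± 2.13 CPM (log2 fold change 0.74 with SE 0.15, adjusted p = 0.0315 in edgeR), and missed the threshold without each library except doxycycline replicate 2 (adjusted p 0.0696 to 0.128) and with offsets (0.0523).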

How the data were processed

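RNA was sequenced from 6 tumour libraries, 3 untreated and 3 taken after doxycycline, grouped by their titles. The authors deposited 1 table of raw counts by gene. The submitters' processing notes list TopHat2 2.0.8, TopHat, HTSeq and mm9, without their roles. Whether counting used strand is not stated in the labels or notes, so genes with an antisense partner (Plxna1, Plxna4, Plxnb1, Unc5a, Unc5c, Ephb1, Epha1, Efna3 and Efna4 among the members) may include its reads. The 90 rows without a gene name held 0.0361% to 0.0402% of counts and were left out.

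Counts were tested in R 4.3.3 with edgeR 4.0.16: filterByExpr, TMM scaling (factors 0.985 to 1.02), the robust quasi-likelihood test, two-sided, Benjamini-Hochberg adjustment over all genes tested and a threshold of 0.05. SE is the log2 fold change over the square root of F. CPM uses TMM-adjusted totals. The script was tested on simulated data. Exonic length and GC content came from GENCODE M21, another build, by symbol (99.0% of named genes matched), and promoters from RefSeq.

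Named by rule were members past the threshold, the smallest p and highest level per length in each of 13 role classes, St18, and called genes of 3 pathway lists. Further members, such as Slit2, Sema3e and Nrp2, were picked after their values were seen. Cell type marker lists are given by sums and counts, and the hepatoblast list by counts and single genes. Members and lists were chosen with earlier results of these data known. Alternatives were RLE scaling, 2 other filters, DESeq2 1.42.0, limma-voom (limma 3.58.1), a replicate block, GC and length offsets, and leaving out each library. Within a group no 2 libraries matched within counting error (chi-square over its degrees of freedom was 5.40 to 31.8). Totals of 12090309 to 16169043 counts limit the precision for scarce genes.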

Additional observations from a re-analysis of the deposited data

How the results depend on the processing

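Numbers of calls depended on the tool and the libraries more than on the scaling. In DESeq2 11 members were higher and 4 lower (877 and 790 genes), and in limma-voom 2 and 0 (261 and 288 genes). With no filter on low counts 4 members were higher and 0 lower. Same-numbered libraries did not deviate together (correlations -0.00976, -0.0747 and 0.0155), and with the replicate number as a block 3 members were higher (Epha3, Sema3d and Sema5a) and 0 lower (215 and 179 genes), so that Slit3, Sema3c, Unc5c and Ephb2 lost their calls (adjusted p 0.0904 to 0.115 in edgeR), as did Chl1 (0.159) and Vasp (0.0993). Numbers alone do not pair the libraries, and these losses say nothing of effect size. The members' median log2 fold change with the block was 0.08. Leaving out 1 library at a time gave 0 to 14 members higher and 0 to 4 lower (11 to 1244 genes higher and 12 to 866 lower). Leaving out 1 library at a time, the log2 fold change of St18 ran from 0.58 (without doxycycline replicate 3) to 1.45 (without doxycycline replicate 2, adjusted p = 0.0386 in edgeR), and the median of the cofactor list from -0.063 to 0.089 (without doxycycline replicate 2). Neo1, never past the threshold, turned to -0.071 with offsets for GC content and length, and ran from -0.0038 (without doxycycline replicate 1) to 0.065 over the fits that left out a library. Over the 27 named genes other than St18 and all settings, 269 fits kept direction and side of the threshold, 67 fell short of it, 13 newly passed it and 2 changed sign. Only genes called in the main fit could fall short, and most of the 269 fits belong to genes not called there. Of 13 alternative fits, Epha3 passed in 10, Rnd1 in 9, Sema3d in 8, Sdc2 in 7 and Sema3c in 6. Slit3, Unc5c and Vasp passed in 5, and Ephb2 and Chl1 in 4. With RLE scaling or a filter of 1 CPM in 3 libraries the same 6 members were called. The cause of these changes was not tested. Members with few counts, such as Robo2, Dcc and 4 untested EphA genes, allow no firm statement.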
